A study of Mus musculus with 248 samples.

Results

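The adult globin genes Hbb-b1, Hbb-b2, Hba-a1, Hba-a2 and Hbq1b were followed in serial blood samples from a mouse model of acute myeloid leukemia. They were taken by Ensembl identifier from the gene tables, and all 5 members were found in both tables, as 5 of 18508 genes in the training cohort and 5 of 13607 genes in the validation cohort, out of 18883 genes in all. RNA was sequenced in bulk from blood labelled PBMC, in a training and a validation cohort. All mice, controls included, were C57BL/6 of both sexes and received 7 injections of poly(I:C), each of 14 mg/kg, when they were 4 to 8 weeks old.

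Mice of the CM arm, with the genotype label CHW, carried a conditional Cbfb 56M allele and Mx1-Cre. Mx1-Cre is a recombinase driven by an interferon-responsive promoter, so poly(I:C) switches on the Cbfb-MYH11 fusion in blood-forming cells and also in other interferon-responsive cells. Mice of the Ctrl arm were littermates labelled HW, CW or WT, described as wild-type animals or animals with the 56M allele alone or Mx1-Cre alone. In training, 55 libraries came from 7 CM mice and 77 from 7 Ctrl mice (2 HW, 4 CW and 1 WT). In validation, 68 libraries came from 13 CM mice and 48 from 8 Ctrl mice (2 HW, 4 CW and 2 WT). Month 0 (T0) was taken before poly(I:C), later samples were taken by month (T) or week (WK), and 6 CM libraries of the validation cohort were labelled as leukemia (L). Each replicate is a separate mouse.

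Hemoglobin, the oxygen carrier of red cells, is built from alpha-like and beta-like globin chains, each of which holds a heme group. Hbb-b1 and Hbb-b2 code for adult beta globin and Hba-a1 and Hba-a2 for adult alpha globin. Hbq1b codes for theta globin, an alpha-like chain of unclear function that lies in the alpha cluster. In blood, globin transcripts come mostly from reticulocytes, the youngest circulating red cells, which keep RNA for a short time after losing the nucleus. The erythroid factors GATA1, KLF1 and NF-E2 act at globin promoters and distal enhancers.

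On GRCm38.p6, per the RefSeq annotation, Hbb-b1 (ENSMUSG00000052305, RefSeq symbol Hbb-bs) spans chr7:103826523-103827928 on the minus strand and Hbb-b2 (ENSMUSG00000073940, RefSeq symbol Hbb-bt) spans chr7:103812524-103813923 on the same strand. On the plus strand, Hba-a1 (ENSMUSG00000069919) spans chr11:32283672-32284486, Hbq1b (ENSMUSG00000073063) chr11:32286964-32287912 and Hba-a2 (ENSMUSG00000069917) chr11:32296492-32297310. The coding sequences of the beta pair are 444 bases each and those of the other members 429 bases each. Both pairs are nearly identical, which limits how far reads can be split between their members. Counted from 1 at the first base of the start codon, Hbb-b1 and Hbb-b2 differ at 1 of 444 coding bases (C417T, 99.8% identical), and Hba-a1 and Hba-a2 differ at 1 of 429 (C381T, 99.8% identical). The stretches around these bases, coding bases 397 to 437 of the beta pair and 361 to 401 of the alpha pair in the GENCODE transcripts, are shown 5′ to 3′ with the differing base in capitals.
Hbb-b1: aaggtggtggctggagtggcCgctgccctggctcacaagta
Hbb-b2: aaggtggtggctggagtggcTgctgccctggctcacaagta
Hba-a1: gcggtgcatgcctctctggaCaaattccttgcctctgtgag
Hba-a2: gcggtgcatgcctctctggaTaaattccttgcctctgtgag

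The sources used here do not give how reads that match both genes of a pair were counted. The split between Hbb-b1 and Hbb-b2, and between Hba-a1 and Hba-a2, is therefore uncertain, and the 2 genes of a pair are not independent measurements. Hbq1b differs from Hba-a1 at 143 of 429 coding bases (66.7% identical) and can be told apart from it. Its coding sequence was not compared base by base with that of Hbq1a, the other theta globin gene (438 bases). How far reads can be split between Hbq1b and Hbq1a is therefore also uncertain.

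The 250 bases before each RefSeq start are shown because the members moved together and because Hbq1b later parted from the others. Capitals mark matches, on either strand, to the CACCC box, the CCAAT box (ATTGG when read on the other strand), the GATA motif as AGATAA or TGATAA, and the ATAAA motif. None of the matches overlap. The sequences are from GRCm38.p6, written along the strand of the gene: Hbb-b1 chr7:103827929-103828178 (minus), Hbb-b2 chr7:103813924-103814173 (minus), Hba-a1 chr11:32283422-32283671 (plus) and Hbq1b chr11:32286714-32286963 (plus).
Hbb-b1: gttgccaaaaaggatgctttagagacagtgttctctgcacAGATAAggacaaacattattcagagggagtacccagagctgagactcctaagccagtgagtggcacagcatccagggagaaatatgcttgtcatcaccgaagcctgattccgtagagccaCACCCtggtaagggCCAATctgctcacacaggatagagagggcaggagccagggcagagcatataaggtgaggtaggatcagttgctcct
Hbb-b2: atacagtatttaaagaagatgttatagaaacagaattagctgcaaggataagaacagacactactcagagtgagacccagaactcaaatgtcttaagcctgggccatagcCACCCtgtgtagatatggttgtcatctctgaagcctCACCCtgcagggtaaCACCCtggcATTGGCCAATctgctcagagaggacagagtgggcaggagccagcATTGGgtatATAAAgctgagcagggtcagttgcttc
Hba-a1: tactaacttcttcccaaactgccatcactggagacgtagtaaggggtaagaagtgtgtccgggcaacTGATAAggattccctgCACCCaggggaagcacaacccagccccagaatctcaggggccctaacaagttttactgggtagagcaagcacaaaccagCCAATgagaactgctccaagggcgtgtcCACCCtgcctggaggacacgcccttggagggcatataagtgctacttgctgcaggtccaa
Hbq1b: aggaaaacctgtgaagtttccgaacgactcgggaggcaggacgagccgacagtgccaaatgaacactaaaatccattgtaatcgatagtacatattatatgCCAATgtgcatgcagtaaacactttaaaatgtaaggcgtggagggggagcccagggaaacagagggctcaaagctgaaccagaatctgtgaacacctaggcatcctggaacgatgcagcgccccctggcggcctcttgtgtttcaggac

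The Hba-a2 window (chr11:32296242-32296491, plus) was 100% identical to that of Hba-a1 over 247 bases at a shift of 3 bases. The Hbb-b1 and Hbb-b2 windows were 51% identical over 249 bases at a shift of -1 base. Both comparisons were made at 1 shift without gaps. Inserted or deleted bases would lower such a value, so the 51% does not measure how alike the beta windows are when aligned. CACCC, a core that KLF1 can bind, was found 1 time before Hbb-b1, 3 times before Hbb-b2 and 2 times before each alpha gene, and was not found in the Hbq1b window. Of 32544 different RefSeq promoters cut to this length, 52.1% held CACCC, 33.8% held CCAAT, 16.5% held AGATAA or TGATAA and 37.2% held ATAAA. The CCAAT box was matched in all 5 windows, and it was the only motif of the set found before Hbq1b. These are letter matches and do not show binding.

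Reads per library were totalled over the genes of each table. These totals ranged from 16 to 36.3 M (M for mega) in the training cohort and from 8.68 to 34.4 M in the validation cohort. A mouse and a library stood apart from their labels. The knock-in transcript listed as MHY11 averaged 3.30 to 4.61 log2 CPM (log2 of reads per M reads) in 12 CM mice of the validation cohort but -3.67 in CM mouse 2700, and it was 3.09 to 3.17 in HW controls of that cohort. In the training cohort it averaged only -3.68 to -1.82 in the 7 CM mice and -4.96 and -4.32 in the HW mice, so mouse 2700 stood apart within its own cohort alone. Sex-chromosome genes went against the label in 1 validation library, that of CM mouse 2731 at T0, and in 0 training libraries. Markers of T cells, B cells, NK cells, monocytes, neutrophils and platelets were all detected in every group of libraries, so the blood labelled PBMC also held RNA of red cells, platelets and neutrophils. In bulk blood, fewer cells of a type and less RNA per cell cannot be told apart.

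Before poly(I:C), the arms did not differ detectably in any globin gene. The members' summed share of CPM is the percentage of a library's reads taken by the 5 genes. It was taken over the genes of each table, whose low-value filters differed between the cohorts. In the training cohort the share was 0.767 to 1.67% (median 1.12%) in 7 CM and 0.473 to 1.78% (median 1.02%) in 7 Ctrl mice. In the validation cohort the share was 1.15 to 12.2% (median 2.12%) in 10 CM and 1.45 to 8.34% (median 2.67%) in 6 Ctrl mice. The ranges of the arms overlapped in both cohorts. By limma, 0 of 5 members passed an adjusted p of 0.05 (a call) in the training cohort, where 0.0054% of all genes did, and 0 of 5 in the validation cohort, where 0% did. At an unadjusted p under 0.05 the count was also 0 of 5 in each cohort, as it was with voom.

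**Figure D1:**
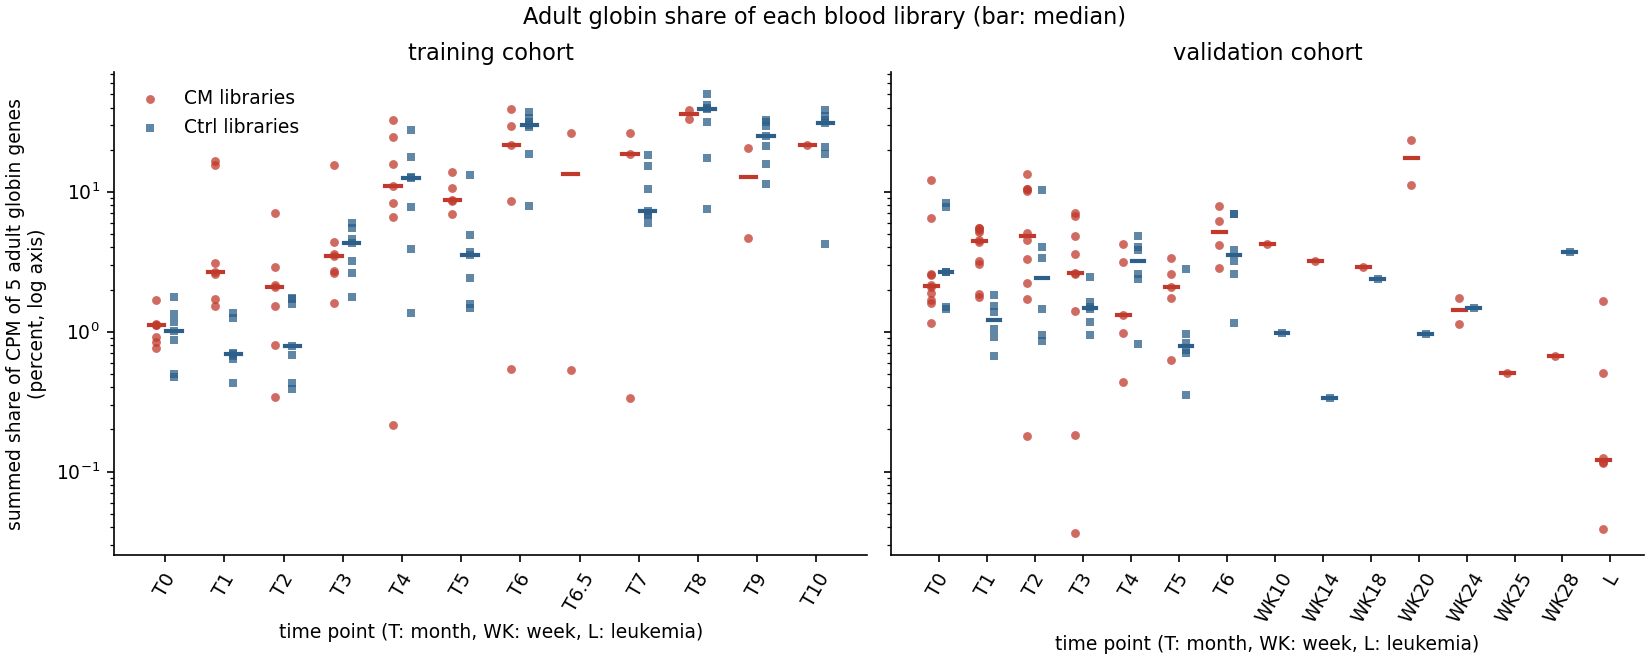
Summed share of CPM of the 5 adult globin genes (percent, log axis) in each library, by time point, for CM (red circles) and Ctrl (blue squares), with a bar at the group median. At T1 the CM medians lie above the Ctrl medians in both cohorts (2.66% against 0.694%, and 4.47% against 1.21%), Ctrl shares of the training cohort reach 49.8% at T8, and the leukemia libraries lie between 0.0386% and 1.66%.

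One month after poly(I:C), all 5 adult globin genes were higher in CM than in Ctrl blood, in both cohorts. In the training cohort the summed share at T1 was 1.53, 1.71, 2.57, 2.66, 3.10, 15.6 and 16.6% in the 7 CM mice, against 0.426 to 1.35% (median 0.694%) in the 7 Ctrl mice. Mice 3336 and 3368 held the pair of highest shares, and every CM mouse lay above every Ctrl mouse.

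Hbb-b1 stood at 13.27 log2 CPM at the lowest, 14.08 at the median and 16.75 at the highest in training CM mice at T1, against 11.39, 12.22 and 13.09 in Ctrl. Hbb-b2 stood at 11.36, 12.29 and 14.80 log2 CPM in CM against 9.52, 9.97 and 11.08 in Ctrl. The groups did not overlap for either beta globin gene. Hba-a1 ran from 10.70 over 11.35 to 14.15 log2 CPM in CM and from 8.93 over 9.56 to 10.66 in Ctrl. For Hba-a2 the values were 10.13, 10.83 and 13.32 log2 CPM in CM and 8.47, 9.0 and 10.13 in Ctrl. The lowest CM mouse, 3334, was only just above the highest Ctrl mouse, 3349, for both alpha globin genes. Hbq1b ran from 0.81 over 2.20 to 4.62 log2 CPM in CM, from 42 to 524 reads a library, and from -1.16 over -0.58 to 0.50 in Ctrl, from 12 to 34 reads. Its groups did not overlap either. How many of all genes separated the arms in this way was not counted, at this or any other time point.

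The training log2 fold changes (CM minus Ctrl, ± SE, n = 7 and 7) were 2.29 ± 0.58 for Hbb-b1, 2.53 ± 0.55 for Hbb-b2, 2.27 ± 0.56 for Hba-a1, 2.19 ± 0.53 for Hba-a2 and 2.74 ± 0.54 for Hbq1b. Their limma adjusted p values were 0.032, 0.017, 0.028, 0.0273 and 0.00895. All 5 of 5 were called, beside 5.02% of all genes (3.68% higher and 1.34% lower), and the median log2 fold change was 2.29 for the members and -0.18 over all genes. The count rested on few mice: it fell to 1 of 5 without Ctrl mouse 3350, to 2 without Ctrl mouse 3340 and to 2 without CM mouse 3368, while the direction held. Hbb-b1 also missed the threshold with median-ratio scaling (limma adjusted p = 0.0507).

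The same direction was found in the validation cohort, with a narrower spread. Summed shares at T1 were 1.78 to 5.54% (median 4.47%) in 10 CM and 0.673 to 1.83% (median 1.21%) in 6 Ctrl mice. Hbb-b1 stood at 13.57, 14.86 and 15.24 log2 CPM (lowest, median, highest) in CM and 12.15, 13.06 and 13.63 in Ctrl. Hbb-b2 stood at 11.63, 13.05 and 13.50 log2 CPM against 10.26, 11.01 and 11.80. For both beta globin genes 9 of 10 CM mice lay above every Ctrl mouse, and the exception was mouse 2700, the CM mouse with little MHY11. Hba-a1 ran from 10.15 over 11.60 to 12.11 log2 CPM in CM and from 9.05 over 9.64 to 10.32 in Ctrl. For Hba-a2 the values were 9.68, 11.15 and 11.70 log2 CPM against 8.72, 9.34 and 9.86. For both alpha globin genes 9 of 10 CM mice were above every Ctrl mouse, and mouse 2718 was not. Hbq1b ran from 1.72 over 3.15 to 3.55 log2 CPM in CM and from -0.03 over 0.41 to 2.10 in Ctrl, with 7 of 10 CM mice above every Ctrl mouse.

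In the validation cohort the log2 fold changes at T1 (CM minus Ctrl, ± SE, n = 10 and 6) were 1.66 ± 0.34 for Hbb-b1, 1.79 ± 0.32 for Hbb-b2, 1.70 ± 0.31 for Hba-a1, 1.64 ± 0.30 for Hba-a2 and 2.11 ± 0.37 for Hbq1b. Limma adjusted p values were 0.00594 for Hbb-b1, 0.00433 for Hba-a2 and 0.00416 for the other members. All 5 of 5 were called, beside 28.5% of all genes (7.95% higher and 20.6% lower). Without mice 2700 and 2731 the values were 1.70, 1.84, 1.79, 1.72 and 2.17 in the same order, and 5 of 5 were still called. In 1 limma fit over months 0 to 6 with the mouse as a replicate block, which shares 1 spread over all months, 2 of 5 were called.

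**Figure D2:**
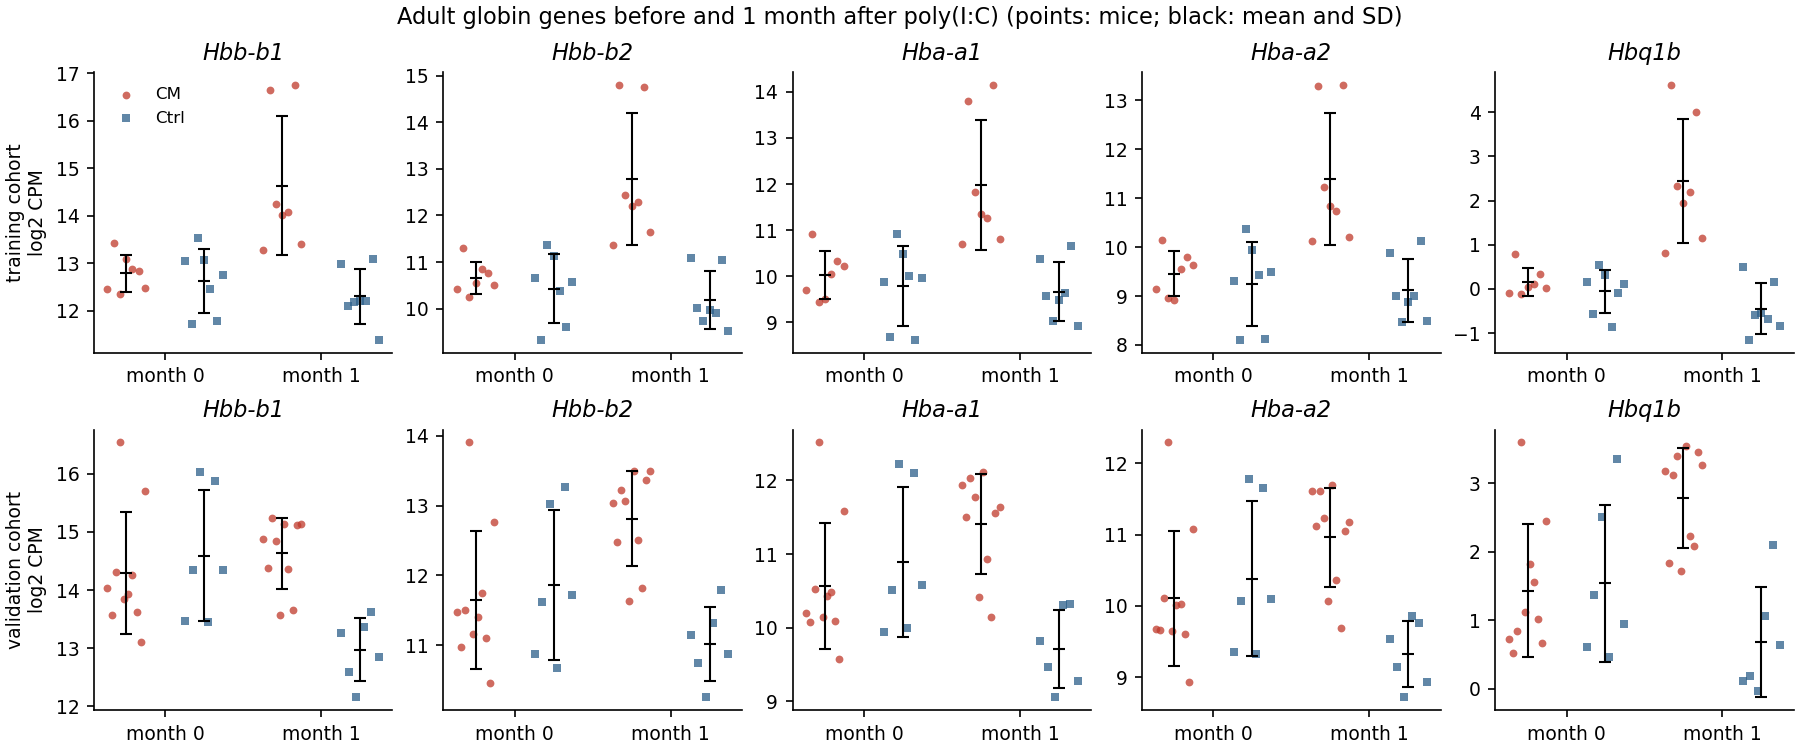
Level of each adult globin gene (log2 CPM) in CM (red circles) and Ctrl (blue squares) mice before poly(I:C) and 1 month after it, training cohort above and validation cohort below, with the mean and SD in black. The arms overlap at month 0, and at month 1 all 7 training CM mice lie above every Ctrl mouse for each gene. The number of all genes that separate the arms in this way was not counted.

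Samples of the same mice gave the direction of each arm. In the training CM mice every member rose from T0 to T1 in 7 of 7 mice. Per mouse, the change in Hbb-b1 was 0.81 at the lowest, 1.2 at the median and 3.92 at the highest on the log2 scale, and that in Hbq1b was 0.90, 2.10 and 3.83. The fitted changes were 1.84 ± 0.41 (Hbb-b1), 2.13 ± 0.37 (Hbb-b2), 1.97 ± 0.35 (Hba-a1), 1.94 ± 0.34 (Hba-a2) and 2.28 ± 0.37 (Hbq1b), with limma adjusted p from 0.00412 to 0.0228. That was 5 of 5 members, beside 6.12% of all genes (3.87% higher and 2.25% lower). In the training Ctrl mice the members' changes lay between -0.39 and -0.12, with limma adjusted p from 0.823 to 0.957. There 0 of 5 were called, beside 0% of all genes, 0 of 5 at an unadjusted p under 0.05 and 0 of 5 with voom.

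In the validation cohort 4 members rose in CM, and the fitted Ctrl changes were below 0 without passing the test. In CM, Hbb-b2 rose by 1.16 ± 0.29, Hba-a1 by 0.84 ± 0.26, Hba-a2 by 0.86 ± 0.28 and Hbq1b by 1.35 ± 0.27 on the log2 scale from T0 to T1 (limma adjusted p of 0.00711, 0.0204, 0.0289 and 0.00169), each in 9 of 10 mice. Hbb-b1 had a change of 0.34 ± 0.33 (limma adjusted p = 0.437), higher in 7 of 10 mice. That was 4 of 5 members, beside 42.8% of all genes (23.6% higher and 19.2% lower), and 2 of 5 without mouse 2708. In Ctrl the changes were -1.61 ± 0.54 for Hbb-b1, -0.84 ± 0.42 for Hbb-b2, -1.19 ± 0.42 for Hba-a1, -1.06 ± 0.44 for Hba-a2 and -0.86 ± 0.37 for Hbq1b, with limma adjusted p from 0.0536 to 0.161. There 0 of 5 were called, beside 33.3% of all genes, but 4 of 5 had an unadjusted p under 0.05 (6184 of 13607 over all genes), 3 of 5 were called lower with voom and 2 of 5 without Ctrl mouse 2702. Each monthly time point of this cohort was 1 batch, so time and batch cannot be told apart within an arm, while the arms shared each batch.

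Tested directly, the change from T0 to T1 differed between the arms for 5 of 5 members in the validation cohort. Of all genes, 12.5% were called (3.76% higher and 8.76% lower). The differences were 1.95 ± 0.57 (Hbb-b1), 2.0 ± 0.50 (Hbb-b2), 2.03 ± 0.48 (Hba-a1), 1.91 ± 0.52 (Hba-a2) and 2.21 ± 0.42 (Hbq1b), with limma adjusted p from 0.00735 to 0.0362. The count fell to 1 without Ctrl mouse 2705 and to 3 without Ctrl mouse 2692 or 2720. In the training cohort the differences were of like size, 2.12, 2.27, 1.93, 1.89 and 2.56, but only that of Hbq1b was called (limma adjusted p = 0.019, and 0.0834 to 0.195 for the others), 1 of 5 beside 1.2% of all genes. This call was lost with median-ratio scaling (limma adjusted p = 0.052) and without CM mouse 3368 or Ctrl mouse 3349 or 3350, and 2 of 5 were called without CM mouse 3334.

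Among the other genes of the red cell program, most membrane, late maturation and enzyme genes were also higher at T1 in both cohorts. In the training cohort the counts, higher and lower in CM, were, beside 3.68% and 1.34% of all genes, 14 and 0 of 14 for red cell membrane and skeleton genes (median log2 fold change 3.41, against -0.18 over all genes), 8 and 0 of 9 for late maturation genes, 7 and 0 of 9 for the globin chaperone and red cell enzyme genes, 6 and 0 of 14 for heme synthesis and iron uptake genes and 4 and 0 of 14 for globin regulators. The validation counts were 14 and 0 of 14, 8 and 0 of 9, 7 and 0 of 8, 8 and 0 of 14 and 5 and 2 of 14, beside 7.95% and 20.6% of all genes. Alas2, which starts heme synthesis in red cells, was higher by 2.41 ± 0.53 (training, limma adjusted p = 0.0172) and 1.75 ± 0.30 (validation, 0.00416). Klf1, the factor for which the CACCC core is known, was higher by 5.6 ± 0.73 and 3.08 ± 0.74 (limma adjusted p of 0.000924 and 0.00967). Hbq1a, the theta globin copy beside Hba-a2, was higher by 2.42 ± 0.65 and 2.17 ± 0.32 (limma adjusted p of 0.0428 and 0.00383). Of 8 genes for handling free hemoglobin and heme, 0 were called in the training cohort, and 2 were higher and 1 lower in the validation cohort.

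Some markers of other blood cells also differed at T1. Over all genes, 3.68% were higher and 1.34% lower in the training cohort, and 7.95% and 20.6% in the validation cohort. Counts of the B cell, monocyte and neutrophil lists at T1 are not given here. Platelet markers were higher for 10 of 12 genes (training) and 9 of 12 genes (validation), with a summed level of 0.380 to 0.980% of CPM in CM against 0.185 to 0.571% in Ctrl, and 0.225 to 1.30% against 0.173 to 0.701%. NK cell markers were lower for 6 of 7 and 7 of 7 genes, with summed levels of 0.00426 to 0.0118% in CM against 0.0114 to 0.0199% in Ctrl of the training cohort and 0.00975 to 0.0333% against 0.0282 to 0.0350% in the validation cohort. Kit and Cd34, listed here as blast markers, were 2 of 2 higher in each cohort, and Kit differed by 1.87 ± 0.51 and 2.15 ± 0.24 (limma adjusted p of 0.0456 and 0.000727). No T1 library was labelled as leukemia. In the training cohort the highest Kit at T1 was in a Ctrl mouse, 3342, at 4.95 log2 CPM. The CM mice had 3.14 to 4.62 and the other Ctrl mice 1.07 to 2.09. T cell markers were 0 of 9 called in each cohort. None of these markers was at 0 in all libraries of a group, and their part in the globin result was not tested.

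After month 1 the arm difference in the globin genes was no longer called in the monthly comparisons. For months 2 to 6, limma called 0 of 5 members in each of the 10 comparisons, beside 11.7 (5.46 higher and 6.25 lower), 0.632, 0.0054, 0 and 0.0162% of all genes in the training cohort and 0.147, 0, 0, 0 and 0% in the validation cohort. At an unadjusted p under 0.05 the member counts were 1, 1, 0, 5 and 0 of 5 for training and 1, 1, 0, 2 and 0 of 5 for validation, and voom called 0 of 5 in each. Over all genes these counts were 5076, 2793, 1030, 1583 and 1661 of 18508 and 1374, 2224, 369, 1169 and 469 of 13607. The single member at months 2 and 3 was Hbq1b in both cohorts. In the 1 fit over months with a replicate block, 1 of 5 members was called at validation month 2 and 1 of 5 at validation month 3. Without Ctrl mouse 3335, 3 of 5 members were called at training month 5, where the fitted differences were 1.28 to 1.57 (limma adjusted p of 0.522 to 0.556).

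**Figure D3:**
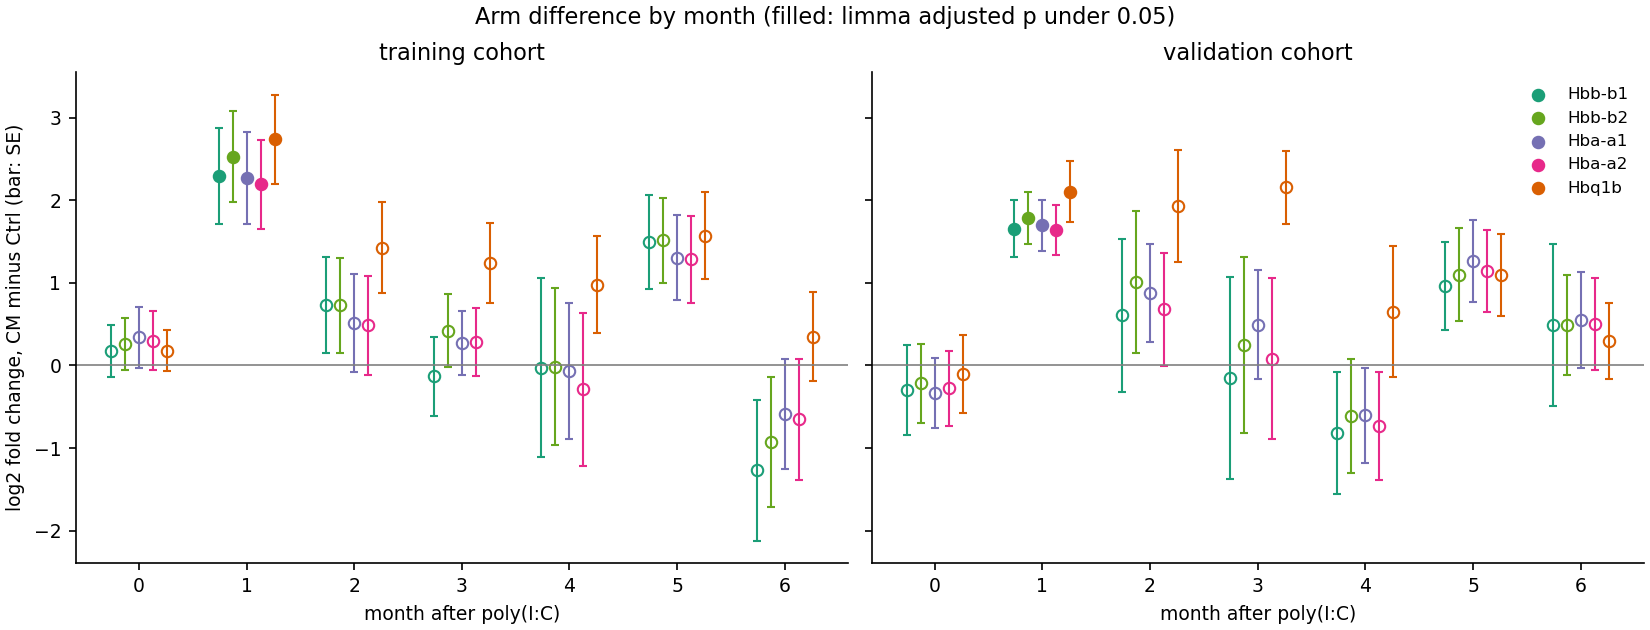
Log2 fold change of each adult globin gene, CM minus Ctrl, with its SE, by month in the training (left) and validation (right) cohort, with filled points for a limma adjusted p under 0.05. Filled points occur at month 1 alone, where all 5 genes lie between 1.64 and 2.74, and Hbq1b stays above the other members at months 2 to 4.

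At months 2, 3 and 4, Hbq1b had the most positive CM minus Ctrl value of the 5 genes in both cohorts. None of these values was called, and at validation month 4 the values of Hbb-b1 and Hba-a2, -0.82 and -0.73, were larger in size than the 0.65 of Hbq1b. At validation month 3 it ran from 0.91 over 2.95 to 4.46 log2 CPM in 9 CM mice and from 0.25 over 0.41 to 0.76 in 6 Ctrl mice, so that 9 of 9 CM mice lay above every Ctrl mouse. The difference was 2.16 ± 0.45 with an unadjusted limma p of 0.000278 and an adjusted p of 0.298. The number of all genes that separated the arms at this month was not counted. At the same month Hbb-b1 ran from 6.72 over 14.26 to 15.64 log2 CPM in CM and from 12.70 over 13.44 to 14.14 in Ctrl, a difference of -0.15 ± 1.22 (limma adjusted p = 0.939). The CM mice had thus spread to both sides of the Ctrl mice for beta globin, with 5 of 9 above and 2 of 9 below all of them. In the training cohort Hbq1b differed by 1.43 ± 0.55 at month 2 and 1.24 ± 0.48 at month 3 (limma adjusted p of 0.109 and 0.242).

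In some later months, single CM mice had very little globin RNA. In the training cohort at T4, the summed share was 0.215% in CM mouse 3338 and 6.56% or more in the other CM mice, with a highest value of 32.5%. At validation T3 the shares were 0.0362% in CM mouse 2719 and 0.181% in CM mouse 2690, against a CM median of 2.64% and 0.940 to 2.47% in Ctrl. These low libraries had Kit at 9.45, 10.20 and 8.57 log2 CPM, where no Ctrl library was above 4.95 (training) or 2.66 (validation).

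In the libraries labelled as leukemia, beta globin RNA was far lower than in the same mice at T0 and T1. The summed share was 0.0386, 0.115, 0.116, 0.124, 0.506 and 1.66% in the 6 mice. In all 10 CM mice of the monthly series it was 1.15 to 12.2% at T0 and 1.78 to 5.54% at T1. These ranges include mice without an L library, and the highest L share, 1.66%, lay within the T0 range. Hbb-b1 stood at 7.43, 9.02, 11.02, 7.62, 7.45 and 13.24 log2 CPM in mice 2684, 2690, 2708, 2718, 2719 and 2731. Hbb-b2 stood at 5.89, 7.88, 9.40, 5.66, 7.12 and 11.57 log2 CPM in the same order. Mouse 2731 had the highest level of both beta genes among these libraries, and mice 2684, 2718 and 2719 were lowest. Hba-a1 stood at 9.57, 8.31, 10.75, 6.74, 9.67 and 11.35 log2 CPM, and Hba-a2 at 7.18, 6.40, 9.16, 4.98, 6.79 and 10.35. Hbq1b stood at 3.54, 1.14, 4.26, -2.25, 2.31 and 3.29 log2 CPM. Mouse 2718 was lowest for Hba-a1, Hba-a2, Hbb-b2 and Hbq1b. Some monthly libraries of these mice were also low in summed share, and were not compared with L by a test. Mouse 2731 at T2 (0.180%) and mouse 2719 at T3 (0.0362%) lay below their own L libraries (1.66 and 0.124%). Mouse 2690 at T3 (0.181%) and mouse 2684 at T4 (0.437%) lay above theirs (0.116 and 0.115%).

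Against T0 of the same 6 mice, Hbb-b1 fell by 5.19 ± 0.67, Hbb-b2 by 3.93 ± 0.66 and Hba-a2 by 2.79 ± 0.66 on the log2 scale (limma adjusted p of 0.000255, 0.000997 and 0.00599), each in 6 of 6 mice. Hba-a1 differed by -1.33 ± 0.62 (limma adjusted p = 0.0899), lower in 4 of 6 mice, and Hbq1b by 0.33 ± 0.84 (limma adjusted p = 0.748), higher in 4 of 6. That was 3 of 5 members, beside 64.5% of all genes (31.4% higher and 33% lower). Against T1, 4 of 5 members fell, beside 63.3% of all genes called (29.2% higher and 34.1% lower). Hbb-b1 fell by 5.50 ± 0.71, Hbb-b2 by 5.13 ± 0.61, Hba-a1 by 2.13 ± 0.41 and Hba-a2 by 3.60 ± 0.52 (limma adjusted p from 0.000203 to 0.00223), each in 6 of 6 mice. Hbq1b had a change of -1.11 ± 0.64 (limma adjusted p = 0.16), higher in 3 and lower in 3 mice. Without mouse 2731 the log2 changes from T0 were -5.74 for Hbb-b1, -4.48 for Hbb-b2 and -3.21 for Hba-a2, and the same 3 members were called. Leukemia, T0 and T1 were separate batches, so disease and batch cannot be told apart here. By the library numbers in the titles, the L library of mouse 2684 lies among those of month 5, apart from the other L libraries.

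**Figure D4:**
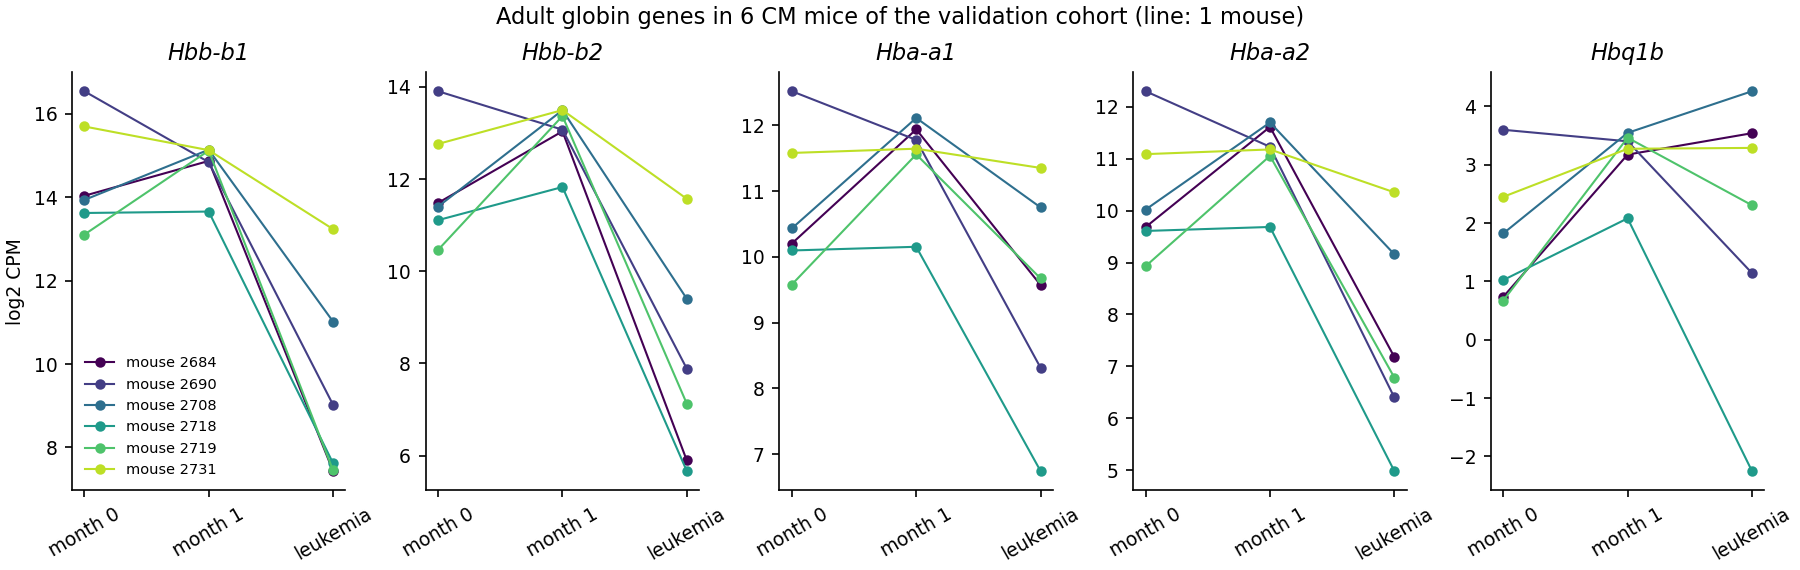
Level of each adult globin gene (log2 CPM) at month 0, month 1 and leukemia in the 6 CM mice of the validation cohort that had a leukemia library, 1 line per mouse. Both beta genes fall in every mouse from month 1, to between 7.43 and 13.24 log2 CPM for Hbb-b1, whereas Hbq1b is higher in 3 mice and lower in 3.

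In leukemia against T0, 31.4% of all genes were called higher and 33% lower. Globin regulators were higher for 12 of 14 and lower for 0 genes, and heme synthesis and iron uptake genes higher for 8 and lower for 3 of 14. Klf1 rose by 7.42 ± 0.42 and Sox6, a regulator that represses embryonic globin, by 5.52 ± 0.48 on the log2 scale (limma adjusted p of 4.27e-06 and 3.14e-05). Car1, a carbonic anhydrase of red cell precursors, rose by 11.39 ± 0.53 (limma adjusted p = 1.67e-06). The list of late maturation genes, with 3 higher and 4 lower of 9, was near the shares of all genes. Epor, the erythropoietin receptor, which had been placed in that list, rose by 4.07 ± 0.46 (limma adjusted p = 0.000128), and its rise is not a measure of late maturation. Hbq1a differed by -3.97 ± 1.08 (limma adjusted p = 0.0115), beside the 0.33 ± 0.84 of Hbq1b. The split of reads between these theta globin genes is uncertain. The median log2 change was -2.79 for the 5 members and -0.04 over all genes.

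Markers of normal blood cells were also lower in leukemia: platelet 10 of 12, T cell 9 of 9, B cell 7 of 7, NK cell 7 of 7, monocyte 5 of 7 and neutrophil 5 of 9, with 1 platelet and 1 neutrophil gene higher, where 33% of all genes were lower. Summed platelet markers were 0.0277 to 0.107% of CPM in L libraries against 0.106 to 0.831% in CM at T0. Kit rose by 8.84 ± 0.38 (limma adjusted p = 1.11e-06), and summed Kit and Cd34 were 0.0298 to 0.288% against 0.000232 to 0.000526%. The part of these markers in the globin change was not tested.

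The final libraries of the training CM mice, taken at months 4 to 10, were mixed. Summed shares were 0.532, 0.334, 0.215 and 0.542% in mice 3334, 3336, 3338 and 3341, with Kit at 8.64, 8.51, 9.45 and 8.07 log2 CPM. Mice 3357, 3370 and 3368 had shares of 10.9, 4.67 and 21.7% with Kit at 6.61, 7.16 and 2.34. The labels do not call leukemia in these libraries. Against T0, Hbq1b rose by 3.31 ± 0.35 on the log2 scale (limma adjusted p = 6.98e-05), in 7 of 7 mice. The other members had changes of 0.27 ± 0.85 (Hbb-b1), 0.71 ± 0.72 (Hbb-b2), 1.35 ± 0.52 (Hba-a1) and 0.72 ± 0.64 (Hba-a2), with limma adjusted p from 0.0527 to 0.822. Hbb-b1 was higher in 3 and lower in 4 of the 7 mice. That was 1 of 5 members, beside 46% of all genes (10.1% higher and 35.9% lower), and 2 of 5 with median-ratio scaling, with voom, or without mouse 3336 or 3338. Against T1, 0 of 5 were called by limma, beside 43.8% of all genes, 0 of 5 at an unadjusted p under 0.05, 0 of 5 with voom and 1 of 5 without mouse 3336.

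Control mice gained globin RNA over the course of the training cohort. Their summed share had a median of 1.02% at T0, 0.694% at T1, 0.785% at T2, 4.31% at T3, 12.5% at T4, 3.56% at T5, 29.9% at T6, 7.28% at T7, 39.1% at T8, 24.9% at T9 and 31.2% at T10. The medians went up and down between neighbouring months, and the highest single library reached 49.8%. At T10 Hbb-b1 ran from 14.92 over 17.83 to 18.11 log2 CPM and Hba-a1 from 11.85 over 14.00 to 15.01 in the 7 Ctrl mice, and neither range overlapped that at T0 (11.73 to 13.53 and 8.62 to 10.93). Mouse 3335 was the lowest for every member at T10. From T0 to T10 Hbb-b1 rose by 4.65 ± 0.57, Hbb-b2 by 4.33 ± 0.52, Hba-a1 by 4.28 ± 0.49, Hba-a2 by 4.28 ± 0.48 and Hbq1b by 3.83 ± 0.46, in 7 of 7 mice each (limma adjusted p from 0.000471 to 0.000576).

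All 5 members were called in Ctrl from T0 to T10, beside 83.1% of all genes (10.5% higher and 72.7% lower). The median change over all genes was -1.81, and median-ratio scaling shifted every value up by 1.71, with 5 of 5 still called. Membrane and skeleton genes were higher for 14 of 14 and platelet markers for 12 of 12, whose summed level was 0.684 to 1.80% of CPM at T10 against 0.127 to 0.441% at T0. T cell, B cell and NK cell markers were lower for 9 of 9, 7 of 7 and 7 of 7 genes. Month and mouse age cannot be told apart, and the part of the platelet and lymphocyte markers in the globin rise was not tested.

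The change from T0 to the last CM library was lower than that from T0 to T10 in Ctrl for 4 of 5 members. Of all genes, 38.6% were called (33.7% higher and 4.92% lower). The differences were -4.15 ± 1.10 (Hbb-b1), -3.45 ± 0.97 (Hbb-b2), -2.85 ± 0.77 (Hba-a1) and -3.43 ± 0.88 (Hba-a2), with limma adjusted p from 0.00979 to 0.0131, and Hbq1b had -0.50 ± 0.62 (limma adjusted p = 0.551). The median over all genes was 0.95, and median-ratio scaling shifted the value of every gene by -1.22, Hbq1b included, with the count of members called still at 4 of 5. The last CM libraries span months 4 to 10, so the times compared differ, and 1 of 5 members was called without Ctrl mouse 3349.

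The ratio of the alpha globin genes kept to a narrow range in Ctrl blood and lay below it in part of the CM libraries, most of which had high Kit. These ratios of reads are not corrected for length and compare libraries, not genes. Hba-a2 reads per Hba-a1 read lay between 0.619 and 0.793 in all 77 Ctrl libraries of the training cohort and between 0.603 and 0.822 in all 48 Ctrl libraries of the validation cohort. In CM, 7 of 55 training libraries (5 mice) and 15 of 68 validation libraries (9 mice) lay below every Ctrl library of their cohort. All 6 leukemia libraries were among them, at 0.191, 0.266, 0.332, 0.296, 0.135 and 0.50 in mice 2684, 2690, 2708, 2718, 2719 and 2731. Since the genes differ at 1 coding base, this ratio depends on how shared reads were counted, and the part of that counting, and of stranded and unstranded libraries, in the ratio was not tested.

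Among the 7 training libraries, the ratio was 0.280 in mouse 3338 at T4 (Kit 9.45 log2 CPM), 0.25 in mouse 3334 at T6.5 (Kit 8.64), 0.334 in mouse 3336 at T7 (Kit 8.51) and 0.444 in mouse 3341 at T6 (Kit 8.07). The other 3 were closer to the Ctrl range, at 0.589 in mouse 3338 at T3, 0.591 in mouse 3336 at T0 and 0.562 in mouse 3368 at T1. Mouse 3368 at T1 also had the highest globin share of its group, 16.6%, so a low ratio did not always go with little globin. All 15 validation libraries below the Ctrl range had Kit between 6.44 and 11.44 log2 CPM, against 0.42 to 2.66 in Ctrl. This is a description over libraries that share mice and batches.

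Reads counted for Hbq1b, whose split from Hbq1a is uncertain, were more frequent beside the alpha globin reads in most of the same libraries. Hbq1b reads per 10000 alpha globin reads lay between 2.60 and 13.7 in training Ctrl and between 2.73 and 19.9 in validation Ctrl libraries. They reached 177 in mouse 3338 at T4 in the training cohort, and 224 in mouse 2731 at T2, 201 in mouse 2690 at T3 and 244 in mouse 2719 at T3 in the validation cohort. In the leukemia libraries the values were 128.4, 54.5, 83.4, 14.2, 53.3 and 24.9 in mice 2684, 2690, 2708, 2718, 2719 and 2731, against 6.90 to 21.5 in CM at T1. Only mouse 2718 lay within the Ctrl range, with 4 Hbq1b reads in its library, the lowest number of any L library, where the highest had 489.

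**Figure D5:**
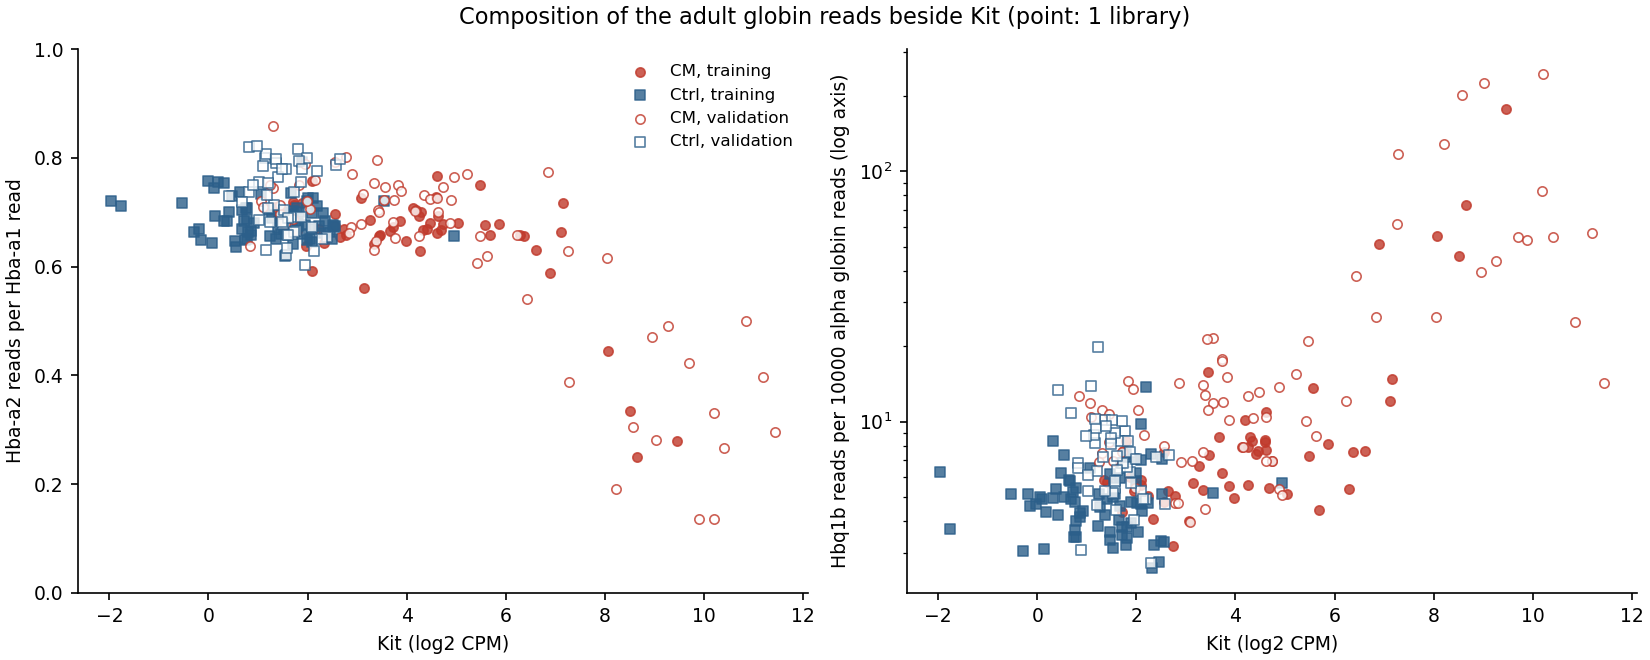
Hba-a2 reads per Hba-a1 read (left) and Hbq1b reads per 10000 alpha globin reads (right, log axis) against Kit (log2 CPM) in each library, CM as red circles and Ctrl as blue squares, filled for the training and open for the validation cohort. Ctrl libraries stay between 0.603 and 0.822 on the left and between 2.60 and 19.9 on the right, and CM libraries with Kit above 8 reach down to 0.135 and up to 244.

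The balance of beta and alpha reads shifted as well. Beta reads per alpha read ranged from 3.71 to 14.2 in training Ctrl and from 4.76 to 11.9 in validation Ctrl libraries. In leukemia they were 0.256, 1.88, 1.2, 1.79, 0.339 and 3.24 in mice 2684, 2690, 2708, 2718, 2719 and 2731, so every L library lay below every Ctrl library of its cohort and mice 2684 and 2719 had more alpha than beta reads. Beta reads made up 20.2 to 76.3% (median 59.2%) of the globin reads there. Hbb-b1 reads per Hbb-b2 read were 5.71 to 7.66 in validation CM at T0, 3.10 to 4.03 at T1 and 1.25 to 3.88 in leukemia. Ctrl moved likewise from T0 (6.09 to 7.98) to T1 (3.55 to 4.34), and T0 and T1 were separate batches.

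Across libraries the adult globin genes rose and fell together, with theta globin the least tied to the rest. Pearson's r between log2 CPM values was 0.993 for Hbb-b1 with Hbb-b2, 0.995 for Hba-a1 with Hba-a2 and 0.974 for Hbb-b1 with Hba-a1 over all training libraries, and 0.979, 0.958 and 0.860 over all validation libraries. For Hbb-b1 with Hbq1b it was 0.847 and 0.357. Spearman's rho for the last pair was 0.873 and 0.557. These values are descriptions, since libraries share mice and batches, and shares of 1 total move against all other genes.

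The genes most like the summed globin level were taken by the lower of the Spearman correlations in the 2 cohorts, over 13225 genes found in both tables. The first 10 included Alas2 (0.987), Bpgm (0.978), Isg20 (0.974), 2810453I06Rik (0.971), Ccndbp1 (0.966), Ube2l6 (0.963), Fam46c (0.961), Tfdp2 (0.955) and Isca1 (0.955), where the median gene had -0.726. Bpgm makes 2,3-bisphosphoglycerate, which lowers the oxygen affinity of hemoglobin. With the correlations taken within arms, 7 of the first 10 genes were again among the first 10.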

How the data were processed

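Values are the authors' deposited log2 CPM per gene, in a table for each cohort. The submitters' processing notes name STAR, Subread, featureCounts, edgeR and the build GRCm38, without tool versions. The table names state low-value filters of 0.5 CPM in 2 samples (training) and 5 CPM in 2 samples (validation). With a prior of 0.25 reads, 100% of values turned back into whole reads (tolerance 0.01), so 0 reads is -6.52 or -6.30. Training libraries were prepared in randomized groups; in the validation cohort 38 libraries were unstranded and 78 stranded.

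Each of 26 comparisons was fitted across all genes by a two-sided limma-trend test (R 4.3.3, limma 3.58.1) with Benjamini-Hochberg adjustment over all genes. Arm comparisons had sex as a covariate. Comparisons over time within an arm had the mouse as a replicate block, because the same animals were sampled, per the mouse numbers in the labels. Shares and ratios come from recovered reads (Python 3.11.15, numpy 2.4.6, scipy 1.17.1, pandas 2.3.3) and have no test. Wilson 95% intervals of the shares reached 0.000718 to 0.0266 percentage points to each side, for counting error only. By the rule for named genes, all members stand in every comparison, and each other list gives its counts and at most 2 called genes, those of largest change; not all of these are printed, and 1 gene of the lists is not reported here. The members and lists were chosen with earlier results of these data known. The fits were tested on simulated data. No pair of libraries of a group agreed within sampling noise (lowest chi-square per degree of freedom 10.8).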

Additional observations from a re-analysis of the deposited data

Results flagged for a closer look

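Single mice stood far from the rest of their group for several members, which a rule of this kind marks by chance in about 1 in 20 groups. In CM at training T4, mouse 3338 was lowest, at 9.20 log2 CPM for Hba-a1, 7.37 for Hba-a2, 9.97 for Hbb-b1 and 8.56 for Hbb-b2, where the next mouse for Hbb-b1 had 15.41. In Ctrl at T10, mouse 3335 was lowest, at 11.85 for Hba-a1, 11.24 for Hba-a2, 14.92 for Hbb-b1, 12.32 for Hbb-b2 and 1.35 for Hbq1b, and at T8 it had 13.25 for Hbb-b2. Ctrl mouse 3350 at T3 had 10.52 for Hba-a1 and 9.92 for Hba-a2, Ctrl mouse 3339 at T6 had 15.71 for Hbb-b1, and CM mouse 3341 at T3 was highest for Hbb-b1 at 16.69. In the validation cohort, CM mouse 2731 at T2 had 7.31 for Hba-a2, 9.61 for Hbb-b1 and 8.10 for Hbb-b2, and Ctrl mouse 2683 at T4 had 10.00 for Hbb-b2 and -1.49 for Hbq1b.

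The change over time differed between the arms by a direct limma test. From T0 to T1, the CM minus Ctrl difference was 2.56 for Hbq1b in the training cohort, and 1.95 for Hbb-b1, 2.0 for Hbb-b2, 2.03 for Hba-a1, 1.91 for Hba-a2 and 2.21 for Hbq1b in the validation cohort. From T0 to the last CM library or to Ctrl T10 in the training cohort it was -4.15 for Hbb-b1, -3.45 for Hbb-b2, -2.85 for Hba-a1 and -3.43 for Hba-a2. No explanation of these values was tested.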

How the results depend on the processing

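The other settings tried were median-ratio scaling, library totals without globin reads, only genes with a mean log2 CPM above 1, voom on the recovered reads, fits with or without the replicate block or sex, and 1 fit over all months. No result reversed. Of the counts of members called under these settings, 147 stayed within 1.5 times the reported count and 13 did not. The 147 include counts of 0 that stayed at 0, also in comparisons where few or no genes at all were called. A count could reverse only where members were called under both settings. With 1 fit over months 0 to 6 and a replicate block, 2 members were called at validation month 1 (5 in the separate fit), 1 at month 2 and 1 at month 3 (0 in each separate fit). For training CM, last library minus T0, median-ratio scaling gave 2 and voom 2 (1 as reported). For validation Ctrl, T1 minus T0 (0 as reported), median-ratio scaling gave 2, totals without globin reads 1, genes above 1 gave 2, voom 3 and no replicate block 1. For the training change from T0 to T1 (1 as reported), median-ratio scaling gave 0, genes above 1 gave 0 (Hbq1b is not tested there) and no sex covariate 2. The replicate block changed no other count by over 1.5 times. Median-ratio scaling moved all genes of a comparison by one log2 shift, of 0.18 at training month 1, 0.21 for training CM T1 minus T0, 0.47 and 0.25 for the last library minus T0 and minus T1, 1.71 for Ctrl T10 minus T0 and -1.22 for the training change to the last library. Voom was not run for the 3 comparisons of changes.

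Leaving out 1 mouse at a time, the members called ranged from 1 to 5 at training month 1, 0 to 3 at training month 5, 4 to 5 for training CM T1 minus T0, 1 to 2 for the last library minus T0, 0 to 1 for the last library minus T1, 2 to 4 for validation CM T1 minus T0, 0 to 2 for validation Ctrl T1 minus T0, 0 to 2 for the training and 1 to 5 for the validation change from T0 to T1, and 1 to 4 for the training change to the last library. Validation month 1 stayed at 5, Ctrl T10 minus T0 at 5, leukemia minus T0 at 3 and leukemia minus T1 at 4. The causes were not tested. Low read counts limit Hbq1b, with 4 to 40 reads in some libraries, more than the other members.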

Other observations

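The validation cohort also held a weekly series of 3 CM and 2 Ctrl mice with 3 libraries each, which was not tested. The weeks sampled differ between the mice. The summed globin share in CM mouse 3200 was 4.22, 3.22 and 2.89% at weeks 10, 14 and 18, against 0.975, 0.334 and 2.38% in Ctrl mouse 3202. At week 20 CM mice 3130 and 3131 had 11.2 and 23.3% and Ctrl mouse 3127 had 0.969%. CM mouse 3130 then had 1.74% at week 24 and 0.504% at week 25, and CM mouse 3131 had 1.14% at week 24 and 0.674% at week 28, while Ctrl mouse 3127 had 1.47 and 3.69% at weeks 24 and 28. Hbq1b stood at 2.58, 4.05 and 4.50 log2 CPM in CM mouse 3200 at weeks 10, 14 and 18. It stood at 3.69, 3.58 and 3.11 in CM mouse 3130 at weeks 20, 24 and 25, and at 4.42, 2.11 and 2.69 in CM mouse 3131 at weeks 20, 24 and 28. The Ctrl libraries of the series lay between -1.66 and 1.18.

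Embryonic globin genes were near the floor in most training libraries. Those named below were not among the 13607 genes of the validation cohort. Hbb-y, an embryonic beta-like globin, was highest in CM mouse 3357 at T4, at 4.43 log2 CPM with 486 reads. It rose by 4.49 ± 0.57 on the log2 scale in Ctrl from T0 to T10 (limma adjusted p = 0.0007), from a median of -4.16 log2 CPM with 3 of 7 libraries at 0 reads to a median of -0.32. Hbb-bh1 and Hba-x, also embryonic, had at most 15 reads in any training library.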
